A study of Mus musculus with 3 samples.

Results

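Ccl3/Ccl4-high mature neutrophils of inflamed mouse knee synovium were chosen by their own RNA, and 3039 cells met the rule among 38722 cells that passed the quality limits. A cell was kept if it had 200 genes or more and if no more than 20% of its UMIs (unique molecular identifiers, each 1 captured transcript) were mitochondrial. It was taken as a neutrophil where Csf3r, Cxcr2, Hdc, Stfa2l1 and Asprv1 together gave at least 0.2% of its UMIs, as mature where Ngp, Camp and Ltf stayed under 1%, and as below the interferon cut where Isg15, Rsad2, Cxcl10, Ifit1 and Oasl1 stayed under 0.2%. Of these cells, those in which Ccl3 and Ccl4 together reached 0.2% of UMIs are the Ccl3/Ccl4-high cells, and the other 6373 are called Ccl3/Ccl4-low cells. The same neutrophil and maturity limits with an interferon share of 0.2% or more gave 1813 interferon-high cells, and 288 neutrophils over the granule-gene limit were called immature. The cells are named by Ccl3 and Ccl4 and are not called activated, since RNA alone was measured.

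The tissue came from female wild-type C57BL/6 mice, used at 8 weeks of age, with collagen- and antibody-induced arthritis. Each mouse had been given 100 µg of type II collagen under the skin on day 0, 1 mg of an antibody mixture against type II collagen on day 21 and lipopolysaccharide (LPS) on day 22, and the synovium was taken in the effector phase. Synovium of 2 mice was pooled per library, 3 libraries were made (replicates 1, 2 and 3), and droplet RNA-seq counted UMIs per gene and cell. All 3 libraries belong to 1 group, with no untreated mice, so every comparison here is between classes of cells within the same libraries, all from mice that had received collagen, antibody and LPS.

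CCL3 (MIP-1α) and CCL4 (MIP-1β) are secreted CC chemokines that draw in monocytes, macrophages, T cells and NK cells, CCL3 in part through the receptor CCR1. Blood neutrophils leave the marrow with few of their transcripts, and their genes are induced after the cells meet LPS, immune complexes, TNF or other cytokines in inflamed tissue, largely through the transcription factor NF-κB. NF-κB dimers are held in the cytoplasm by inhibitors such as IκBα, the product of Nfkbia, which is itself an NF-κB target. In arthritic joints neutrophils are among the first leukocytes to enter the synovium and joint fluid.

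The 3 libraries held 101384374, 99782608 and 116125707 UMIs in 11939, 11602 and 15263 barcodes, and 82 barcodes of all 38804 failed the quality limits. Replicates 1, 2 and 3 gave 1007, 1126 and 906 Ccl3/Ccl4-high cells, whose median depth was 1908, 2044.5 and 1650.0 UMIs, against 2004, 2089 and 1635 UMIs in Ccl3/Ccl4-low cells. Levels are given in CPM, the UMIs of a gene per 1000000 UMIs of a class in a library. Cell names in the matrices are serial numbers, and 6784 names occur in more than 1 library, so cells shared between libraries cannot be read from them.

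The neutrophil identity of the cells was checked on a gene that the rule does not use. S100a8, a subunit of calprotectin, which neutrophils carry in large amounts, averaged 43923 ± 10051 CPM in Ccl3/Ccl4-high cells and 52865 ± 16378 CPM in Ccl3/Ccl4-low cells (SD, n = 3 libraries), against 2119 ± 785 CPM in 9377 cells gated on macrophage genes and 1931 ± 894 CPM in 9862 cells gated on fibroblast genes. Csf3r, the G-CSF receptor, and Cxcr2, the receptor for CXCL1 and CXCL2, are part of the rule; they averaged 1563 ± 133 and 902 ± 93.6 CPM in Ccl3/Ccl4-high cells, against 99.0 ± 7.68 and 25.2 ± 1.11 CPM in macrophage-gated cells. RNA of other cell types was present in every class. With each cell thinned to 1000 UMIs, Col1a1, a fibroblast collagen, had a UMI in 89.2% of Ccl3/Ccl4-high cells and 89.6% of Ccl3/Ccl4-low cells, and also in 82.6% of macrophage-gated cells and 99.7% of fibroblast-gated cells (unthinned, 97.6, 97.9, 99.5 and 100.%). The summed 10 macrophage markers came to 2123, 1213 and 2375 CPM in Ccl3/Ccl4-high cells, against 2341, 1568 and 3281 CPM in Ccl3/Ccl4-low cells and 20915, 21419 and 20672 CPM in the macrophage gate. The summed 7 fibroblast markers came to 5286, 5687 and 6529.6 CPM in Ccl3/Ccl4-high cells, against 6409, 7046 and 10738 CPM in Ccl3/Ccl4-low cells. Barcodes that a doublet caller scored as likely to hold 2 cells made up 2.28, 2.04 and 1.99% of Ccl3/Ccl4-high cells, against 5.05, 4.08 and 7.93% of Ccl3/Ccl4-low cells, so each of these measures was lower in the Ccl3/Ccl4-high cells of every library. The part that they have in the results was not tested beyond the counts without such barcodes given beside them.

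Ccl3/Ccl4-high cells made up close to the same share of mature neutrophils below the interferon cut in each library. The share was 30.7% in replicate 1 (95% exact Clopper-Pearson interval 29.1 to 32.3%), 32.6% in replicate 2 (31.0 to 34.2%) and 33.9% in replicate 3 (32.1 to 35.7%). The mean was 32.4% with an SD of 1.63 percentage points (n = 3). These intervals cover counting error only. Of all gated neutrophils they were 26.1, 27.8 and 25.2%, while interferon-high cells were 13.2, 10.5 and 24.5% and Ccl3/Ccl4-low cells 59.0, 57.5 and 49.1%. Replicate 3 thus held the highest share of interferon-high cells and the lowest share of Ccl3/Ccl4-low cells, while its share of Ccl3/Ccl4-high cells was close to those of the others. Of all cells in a library they were 8.45, 9.74 and 5.94%.

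**Figure D1:**
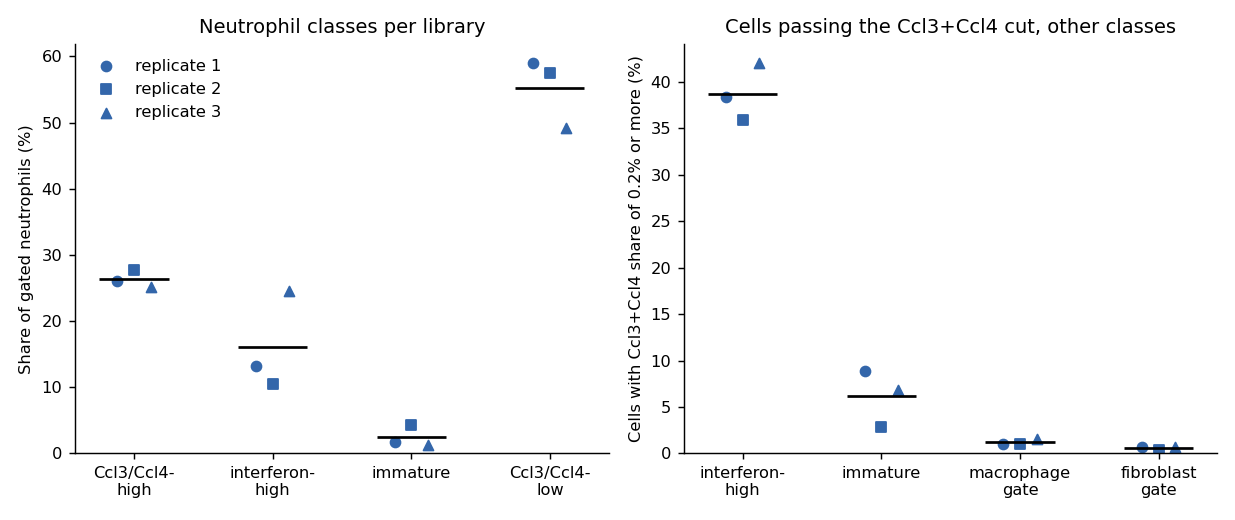
Left, the share of gated neutrophils (%, vertical axis) in 4 classes; right, the share of cells (%, vertical axis) of other classes whose Ccl3 and Ccl4 UMIs reach the same 0.2% limit. Each symbol is 1 of 3 libraries and each bar their mean; Ccl3/Ccl4-high cells took 26.1, 27.8 and 25.2% of neutrophils, and 38.4, 35.8 and 42.0% of interferon-high cells reached the limit against 0.992, 0.988 and 1.56% of macrophage-gated cells.

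The levels of Ccl3 and Ccl4 describe what the rule chose and support nothing further. Ccl3 stood at 2264, 1962 and 2265 CPM in Ccl3/Ccl4-high cells, against 252, 261 and 255 CPM in Ccl3/Ccl4-low cells, and Ccl4 at 3404, 3639 and 4135 CPM, against 193, 217 and 238 CPM. Most Ccl3/Ccl4-high cells carried both transcripts. Both were seen in 68.2, 70.6 and 72.1% of the cells, Ccl3 without Ccl4 in 17.6, 13.9 and 12.8%, and Ccl4 without Ccl3 in 14.2, 15.5 and 15.1%. The median cell had a summed share of 0.464, 0.46 and 0.502%, and the highest cell of each library reached 4.94, 5.67 and 5.69%. The limit rests on few molecules: the 347 cells just inside it, at shares of 0.2 to 0.25%, had a median of 5 Ccl3 and Ccl4 UMIs, and the 538 cells just outside it, at 0.15 to 0.2%, a median of 3.

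Among the 4 other classes set beside them here, interferon-high neutrophils had the next highest levels; other cell types were not gated. Ccl3 averaged 2164 ± 175 CPM in Ccl3/Ccl4-high cells (SD, n = 3), 1073 ± 95.6 CPM in interferon-high cells, 199.6 ± 30.3 CPM in immature neutrophils, 91.2 ± 12.1 CPM in macrophage-gated cells and 47.0 ± 4.49 CPM in fibroblast-gated cells. For Ccl4 the same classes had 3726 ± 373, 2069 ± 484, 356 ± 108, 116 ± 21.7 and 67.9 ± 5.08 CPM. The fibroblast-gated cells were not chosen for these genes, and free RNA also reaches them. They are much deeper than the neutrophils, so their CPM does not give the background of free RNA in neutrophils, which was not measured. At 1000 UMIs a cell, a Ccl3 UMI was seen in 74.8% of Ccl3/Ccl4-high cells, 38.4% of interferon-high cells, 19.8% of Ccl3/Ccl4-low cells, 8.18% of macrophage-gated and 5.09% of fibroblast-gated cells. For Ccl4 the shares were 79.3%, 41.8%, 14.6%, 9.34% and 6.92%. Unthinned, the same 5 classes had 85.1, 47.7, 32.8, 35.8 and 38.1% for Ccl3 and 85.2, 48.3, 26.5, 38.5 and 45.7% for Ccl4, at depths that differ between classes (median UMIs 7947, 7650.0 and 6186 in the macrophage gate and 11816, 13124 and 9841 in the fibroblast gate). The share of interferon-high cells that reached the 0.2% limit, 38.4, 35.8 and 42.0%, was given no test, since those cells had passed another limit of the same rule. No more than 1.56% of macrophage-gated and 0.692% of fibroblast-gated cells reached it in any library.

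Each of the 2 chemokine genes was also measured in cells chosen on the other alone. Among mature neutrophils below the interferon cut, cells with a Ccl3 share of 0.2% or more had 3127, 3502 and 4556 CPM of Ccl4, against 774, 961 and 950.1 CPM in cells with less Ccl3. In the converse choice, cells with a Ccl4 share of 0.2% or more had 1871, 1713 and 2149.6 CPM of Ccl3, against 606, 556 and 553 CPM in the rest. The values lay apart in each library. Both genes belong to the rule, so this is a description with no test.

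Ccl3/Ccl4-high cells were next set against Ccl3/Ccl4-low cells, which passed the same limits for neutrophil, granule and interferon genes. Called higher in Ccl3/Ccl4-high cells were 7 of 21 cytokine and growth factor genes (Csf1 and Tnf among them), 6 of 28 NF-κB genes (among them Icam1, Traf1 and Nfkbia), 3 of 11 chemokine genes (Cxcl2, Cxcl3 and Ccl2) and 7 of 21 survival and death genes, and Csf1 had the highest log2 fold change among genes at 50 CPM or more. Called lower were 4 of 25 genes of mature blood neutrophils (Retnlg, Cd177, Ifitm6 and Mmp8) and Ly6g. UMI sums per library were tested with edgeR's quasi-likelihood test. A gene was called if its log2 fold change was 0.5 or more in size and its p, adjusted by Benjamini-Hochberg over all genes, was under 0.05. Of 10451 genes tested, leaving out the 15 genes of the rule, 170 were called higher (1.63%) and 281 lower (2.69%), in all 451 (4.32%). Among genes at 50 CPM or more in the higher class, 80 were higher and 51 lower, so the genes called lower were mostly of low level. The median log2 fold change of all tested genes was -0.02, and 47.2% lay above 0. At an unadjusted p under 0.05, 1303 genes (12.5%) were higher and 1309 (12.5%) lower, and the list counts are to be read against these shares. Without the library as a block, 9 genes were called higher and 0 lower (641 higher and 650 lower at an unadjusted p under 0.05, edgeR), and with DESeq2 102 and 53 were called. Leaving out likely doublets gave 106 higher and 95 lower.

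**Figure D2:**
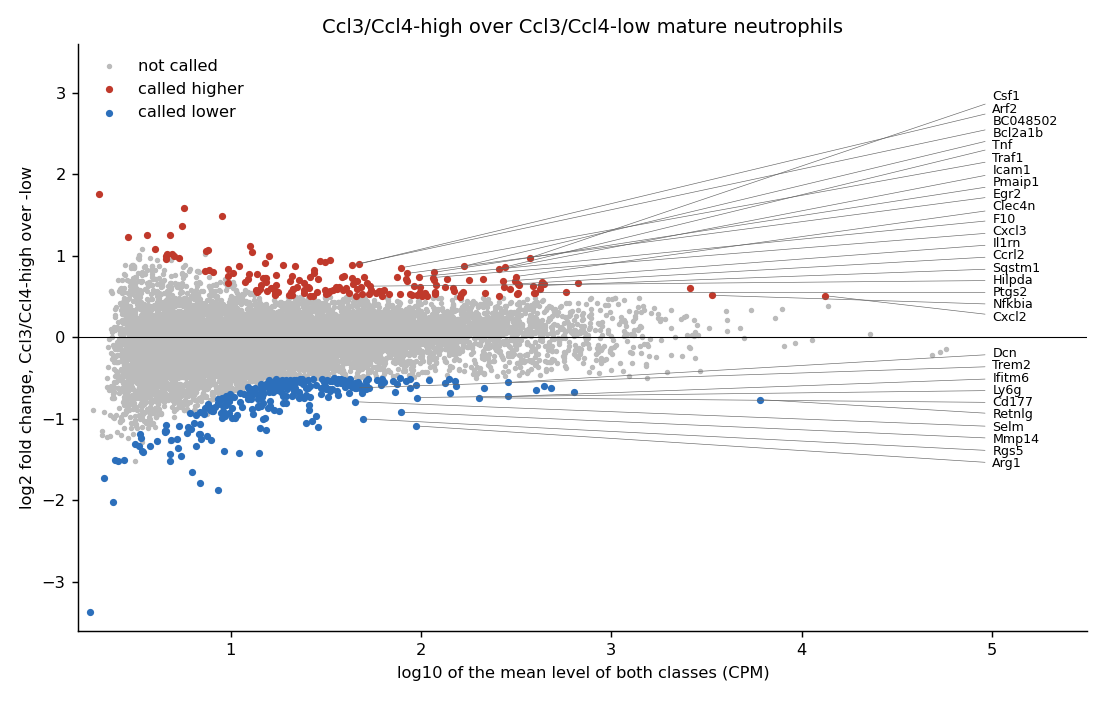
Each point is 1 of 10451 tested genes: the horizontal axis is the log10 of its mean level in both classes (CPM) and the vertical axis its log2 fold change, Ccl3/Ccl4-high over Ccl3/Ccl4-low cells, over 3 libraries. The 170 genes called higher are red and the 281 called lower are blue, and the 29 named genes that were called carry labels; Csf1 and Retnlg lie at log2 fold changes of 0.98 and -0.76.

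Genes for secreted proteins were among those called higher. Of 21 tested cytokine and growth factor genes, 7 were higher and 0 lower (9 higher and 0 lower at an unadjusted p under 0.05, and 6 higher and 0 lower by DESeq2), with a list median of 0.27 on the log2 scale against -0.02 over all genes. Csf1 encodes M-CSF, the growth factor that macrophages and osteoclast precursors need. It stood at 485, 407 and 584 CPM in Ccl3/Ccl4-high cells, against 254, 232 and 269.5 CPM in Ccl3/Ccl4-low cells. All 3 Ccl3/Ccl4-high sums were above all 3 Ccl3/Ccl4-low sums (log2 fold change 0.98 ± 0.06, adjusted p = 3.25e-10; the error of a log2 fold change is its SE throughout). Tnf, the cytokine blocked in the treatment of human arthritis, stood at 327, 337 and 405 CPM in Ccl3/Ccl4-high cells, against 202, 199 and 190.2 CPM in Ccl3/Ccl4-low cells. The classes did not overlap here either (log2 fold change 0.86 ± 0.07, adjusted p = 1.7e-08), and the excess was largest in replicate 3. Il1rn, which encodes the natural antagonist of the IL-1 receptor, had 321, 318 and 357 CPM in Ccl3/Ccl4-high cells, against 203, 203 and 223 CPM in Ccl3/Ccl4-low cells (log2 fold change 0.69 ± 0.06, adjusted p = 2.53e-08). Il1b, the agonist that IL1RN blocks, stood at 5990.3, 6009 and 5896 CPM in Ccl3/Ccl4-high cells, against 4861, 4874 and 4702 CPM in Ccl3/Ccl4-low cells, a separation in every library of 0.33 ± 0.05 on the log2 scale that is under the limit of 0.5 for a call. The other 4 genes called were Il1a (0.95 ± 0.12), Il23a (0.79 ± 0.14), the angiogenic factor Vegfa (0.62 ± 0.12) and the EGF receptor ligand Areg (1.59 ± 0.38, at 1.66, 12.2 and 11.5 CPM in Ccl3/Ccl4-high cells, against 2.27, 1.88 and 4.46 CPM in Ccl3/Ccl4-low cells), of which Areg was higher in 2 of 3 libraries. Osm, an IL-6 family cytokine of neutrophils, was not called and stood at 293, 308 and 323 CPM in Ccl3/Ccl4-high cells, against 292, 301 and 284 CPM in Ccl3/Ccl4-low cells, with overlapping classes. Without likely doublets 6 of the 21 were called higher, and Vegfa was not (0.49).

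Other chemokine genes followed Ccl3 and Ccl4 in part. Of 11 tested, 3 were called higher and 0 lower (4 higher and 3 lower at an unadjusted p under 0.05, and 3 and 0 by DESeq2), with a list median of 0.03. Cxcl2 encodes a ligand of CXCR2 that draws in further neutrophils. It stood at 14994, 15121 and 16411 CPM in Ccl3/Ccl4-high cells, against 10724, 11128 and 11308 CPM in Ccl3/Ccl4-low cells, without overlap (log2 fold change 0.51 ± 0.05, adjusted p = 5.31e-08). The value lies near the limit: without likely doublets it was 0.39 and without replicate 3 it was 0.47, which end the call. The call was kept in 10 of 20 alternative settings, over which the value ranged from 0.32 to 0.66. Cxcl3, a close relative of Cxcl2, had 138, 119 and 170.1 CPM in Ccl3/Ccl4-high cells, against 62.5, 87.2 and 114 CPM in Ccl3/Ccl4-low cells (log2 fold change 0.73 ± 0.09, adjusted p = 4.9e-06). Ccl2, which encodes the CCR2 ligand MCP-1 that recruits monocytes, had 268, 216 and 301 CPM in Ccl3/Ccl4-high cells, against 172, 135 and 179 CPM in Ccl3/Ccl4-low cells (log2 fold change 0.71 ± 0.06, adjusted p = 3.62e-08).

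Most NF-κB genes lay above 0 on the log2 scale, and few passed the limit for a call. Of 28 tested subunits, targets and feedback genes, 6 were called higher and 0 lower (21 and 0 at an unadjusted p under 0.05, and 7 and 0 by DESeq2); 25 of the 28 had a log2 fold change above 0, and the list median was 0.35. Without likely doublets 4 of 27 were called higher. Icam1 encodes the adhesion molecule that binds β2 integrins on other leukocytes. It stood at 342, 269.5 and 365 CPM in Ccl3/Ccl4-high cells, against 192, 159 and 203 CPM in Ccl3/Ccl4-low cells, with no overlap (log2 fold change 0.83 ± 0.06, adjusted p = 2.08e-09). Traf1, an adaptor of TNF receptors that is itself induced by NF-κB, had 87.3, 96.5 and 119 CPM in Ccl3/Ccl4-high cells, against 53.7, 52.1 and 63.6 CPM in Ccl3/Ccl4-low cells (log2 fold change 0.85 ± 0.08, adjusted p = 1.71e-07). Nfkbia, the IκBα gene described above, had 4052, 3794 and 3979.6 CPM in Ccl3/Ccl4-high cells, against 2974, 2735 and 2697 CPM in Ccl3/Ccl4-low cells (log2 fold change 0.52 ± 0.05, adjusted p = 1.06e-07). Its call ended without likely doublets (0.39) and without replicate 3 (0.46), among other settings. It was kept in 9 of 20 alternative settings, over which the log2 fold change ranged from 0.33 to 0.66. Marcksl1 (0.67 ± 0.05), Ier3 (0.61 ± 0.05) and Tnip1 (0.57 ± 0.09), which encodes a partner of the deubiquitinase A20, were the other genes called, of which Ier3 was not called without likely doublets (0.49). The genes of the dimers themselves were not called, with log2 fold changes of 0.14 ± 0.07 for Nfkb1 and 0.26 ± 0.08 for Rela, and Tnfaip3, the A20 gene, had 0.34 ± 0.06.

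The 250 bases before the transcription start were searched for letters that NF-κB is known to bind, because NF-κB targets were among the genes called higher. The search used the 10-base NF-κB consensus on both strands, with overlapping matches counted. Of the 19 named genes called higher, 16 were in the RefSeq promoter table (build GRCm38.p6), with 26 promoters, and 6 of these promoters (23.1%) held a match, against 1281 of all 32851 promoters (3.90%). The 6 belonged to Ccrl2, Csf1, Cxcl2, Cxcl3, Nfkbia and Sqstm1. The promoters of Arf2, Bcl2a1b, Egr2, F10, Hilpda, Icam1, Il1rn, Ptgs2, Tnf and Traf1 held no match, and Ccl4 was not in the promoter table. Of the 10 named genes called lower, 7 were in the table with 8 promoters, and 0 held a match. The AP-1 motif TGANTCA, also searched on both strands, was in 3 of the 26 promoters (11.5%), against 6.75% of all. It was also in 1 of the 8 promoters (12.5%) of the named genes called lower. The 19 genes were chosen for their change, 3 of them (Icam1, Traf1 and Nfkbia) are in the NF-κB list and several others are textbook NF-κB targets, so these shares are a description with no test. A match describes letters in this window and is no evidence of binding. The promoters of 3 of these genes and of Ccl3 are shown here, 5′ to 3′ on the gene's strand, with each match in capitals: Csf1 at chr3:107760470-107760719 (minus strand, match from position -154 relative to the start), Cxcl2 at chr5:90903649-90903898 (plus strand, a pair of overlapping matches), Nfkbia at chr12:55492648-55492897 (minus strand, match from -29) and Ccl3 at chr11:83649379-83649628 (minus strand, where these letters are not in the window).
Csf1: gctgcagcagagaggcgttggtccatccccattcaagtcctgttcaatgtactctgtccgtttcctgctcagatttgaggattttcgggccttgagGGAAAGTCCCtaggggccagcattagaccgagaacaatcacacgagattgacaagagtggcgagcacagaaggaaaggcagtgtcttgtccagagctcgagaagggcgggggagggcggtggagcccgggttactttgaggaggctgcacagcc
Cxcl2: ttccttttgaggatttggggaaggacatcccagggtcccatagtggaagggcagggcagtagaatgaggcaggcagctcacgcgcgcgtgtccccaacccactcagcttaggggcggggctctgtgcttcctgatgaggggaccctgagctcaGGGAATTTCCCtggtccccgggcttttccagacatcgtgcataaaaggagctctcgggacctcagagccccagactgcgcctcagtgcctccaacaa
Nfkbia: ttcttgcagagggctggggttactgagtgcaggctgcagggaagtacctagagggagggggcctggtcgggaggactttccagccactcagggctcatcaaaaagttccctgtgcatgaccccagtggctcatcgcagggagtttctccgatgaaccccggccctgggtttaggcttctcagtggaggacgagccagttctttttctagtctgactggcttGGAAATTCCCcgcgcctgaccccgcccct
Ccl3: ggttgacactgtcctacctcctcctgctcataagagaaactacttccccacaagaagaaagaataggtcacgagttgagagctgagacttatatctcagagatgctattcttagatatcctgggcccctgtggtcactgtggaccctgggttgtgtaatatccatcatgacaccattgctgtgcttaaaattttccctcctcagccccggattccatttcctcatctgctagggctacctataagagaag

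**Figure D3:**
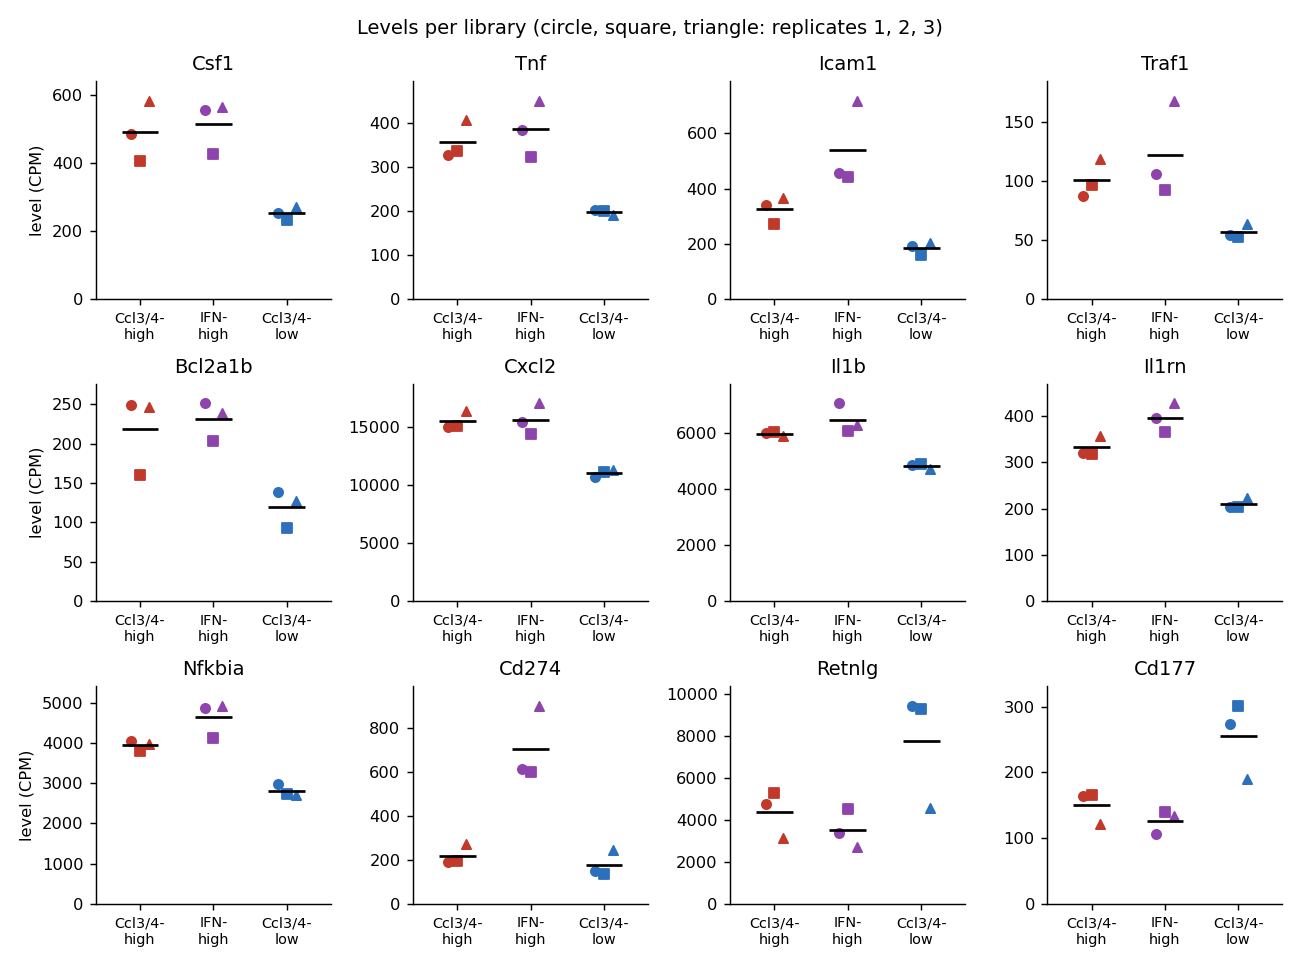
Level (CPM, vertical axis) of 12 genes in Ccl3/Ccl4-high, interferon-high (IFN-high) and Ccl3/Ccl4-low cells; symbols are the 3 libraries and bars their means. Csf1, Tnf, Icam1, Traf1, Cxcl2, Il1rn and Nfkbia sit above the Ccl3/Ccl4-low cells in every Ccl3/Ccl4-high sum, Cd274 stands apart in interferon-high cells, and Cd177 lies below the Ccl3/Ccl4-low cells.

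Immediate early genes, which are transcribed within minutes of a signal, also lay mostly above 0. Of 28 tested, 7 were called higher and 0 lower (23 and 0 at an unadjusted p under 0.05, and 7 and 0 by DESeq2), 27 had a log2 fold change above 0, and the list median was 0.32. Without likely doublets 4 of 28 were called higher, and with cells thinned to 1000 UMIs 3 of 26. Egr2, a zinc-finger transcription factor, stood at 119, 93.0 and 104 CPM in Ccl3/Ccl4-high cells, against 57.0, 57.9 and 73.7 CPM in Ccl3/Ccl4-low cells (log2 fold change 0.78 ± 0.09, adjusted p = 1.42e-06). The others called were the MAP kinase phosphatases Dusp2 (0.75 ± 0.09) and Dusp5 (0.54 ± 0.07), the transcription factors Maff (0.69 ± 0.08) and Atf3 (0.64 ± 0.06), Ppp1r15a (0.60 ± 0.06), which encodes GADD34, and Phlda1 (0.50 ± 0.07); without likely doublets Dusp5 (0.40), Ppp1r15a (0.47) and Phlda1 (0.39) were not called. Fos, Jun and Egr1, which tissue dissociation is known to induce, as it does Atf3, were not called. Fos had 1744, 1303 and 1349 CPM in Ccl3/Ccl4-high cells, against 1533, 1207 and 1312 CPM in Ccl3/Ccl4-low cells, Jun had a log2 fold change of 0.41 ± 0.05 and Egr1 0.48 ± 0.05. Jun and Egr1 thus lay above 0 but under the size limit of 0.5 for a call. Of 11 heat shock genes, which dissociation also induces, 0 were called in either direction by edgeR (2 higher and 3 lower at an unadjusted p under 0.05) or by DESeq2, and their median was -0.02. The part of dissociation in the values of either list was not tested.

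Genes called among those that govern survival and death of the cell lay on both sides of that balance. Of 21 tested, 7 were called higher and 1 lower (12 and 1 at an unadjusted p under 0.05, and 6 and 0 by DESeq2), with a median of 0.36, and without likely doublets 5 were called higher and 0 lower. Bcl2a1b encodes a copy of A1, a pro-survival member of the BCL2 family that NF-κB induces. It stood at 249, 159.8 and 246 CPM in Ccl3/Ccl4-high cells, against 139, 93.3 and 127 CPM in Ccl3/Ccl4-low cells (log2 fold change 0.88 ± 0.07, adjusted p = 5.53e-09). Bcl2a1d (0.92 ± 0.12) and Bcl2a1a (0.58 ± 0.12) were called too, but these copies are near-identical and reads may be split between them, so the 3 values are uncertain as values of single genes. Genes for 3 pro-apoptotic BH3-only proteins were also higher: Pmaip1, which encodes NOXA, had 172, 115 and 155 CPM in Ccl3/Ccl4-high cells, against 93.1, 72.3 and 91.7 CPM in Ccl3/Ccl4-low cells (log2 fold change 0.80 ± 0.07, adjusted p = 5.28e-08), Bbc3, which encodes PUMA, had 0.73 ± 0.19 and Bcl2l11, which encodes BIM, had 0.55 ± 0.06; without likely doublets Bbc3 (0.56) and Bcl2l11 (0.43) were not called. Cdkn1a, the p21 gene, had 0.62 ± 0.07. Bcl2, the pro-survival founder of the family, was the 1 gene called lower, at 4.16, 6.29 and 5.76 CPM in Ccl3/Ccl4-high cells, against 12.1, 7.69 and 12.0 CPM in Ccl3/Ccl4-low cells (log2 fold change -0.90 ± 0.27, adjusted p = 0.0294), and it was not called without likely doublets (-0.72) or by DESeq2.

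Among sensors and receptors, 4 of 26 pattern and Fc receptor genes with their adaptors were called higher and 0 lower (16 and 1 at an unadjusted p under 0.05, and 4 and 0 by DESeq2; median 0.25). Clec4n encodes dectin-2, a lectin receptor for fungal mannans that signals through the Fc receptor γ chain. It stood at 404, 284 and 483 CPM in Ccl3/Ccl4-high cells, against 242, 169 and 301 CPM in Ccl3/Ccl4-low cells, where the libraries of the classes overlap although each library was higher in its own Ccl3/Ccl4-high cells (log2 fold change 0.75 ± 0.06, adjusted p = 5.02e-09). Tlr4, the receptor for LPS, had 121, 119.6 and 129 CPM in Ccl3/Ccl4-high cells, against 80.4, 79.8 and 101 CPM in Ccl3/Ccl4-low cells (log2 fold change 0.54 ± 0.07, adjusted p = 1.41e-05). Clec5a (0.62 ± 0.08), a receptor that signals through the adaptor DAP12, and Irak2 (0.66 ± 0.06), an IRAK-family protein downstream of Toll-like receptors, completed the group. Of 20 chemoattractant receptor genes, 2 were called higher and 1 lower (9 and 3 at an unadjusted p under 0.05, and 1 and 1 by DESeq2). Ccrl2, which encodes a non-signalling receptor that binds chemerin, had 448, 357 and 374 CPM in Ccl3/Ccl4-high cells, against 291, 231 and 238 CPM in Ccl3/Ccl4-low cells (log2 fold change 0.66 ± 0.06, adjusted p = 2.91e-08), the ATP and UTP receptor gene P2ry2 had 0.67 ± 0.22, and C3ar1, the receptor for the complement fragment C3a, had -0.66 ± 0.12. Of 23 cytokine receptor genes 0 were called by edgeR in either direction (11 higher and 0 lower at an unadjusted p under 0.05), and DESeq2 called 1 higher. Of 17 adhesion and migration genes, Icam1 and the integrin gene Itgax (0.60 ± 0.15) were higher and Ceacam10 (-0.51 ± 0.12) lower. At an unadjusted p under 0.05, 8 of these adhesion and migration genes were higher and 1 lower. Without likely doublets Tlr4 (0.43), P2ry2 (0.50), C3ar1 (-0.32) and Itgax (0.49) were not called. DESeq2 did not call P2ry2, Itgax or Ceacam10.

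Checkpoint and tissue-state genes, a list of genes seen in neutrophils after their entry into tissues, had 4 members higher and 2 lower of 21 tested (10 and 2 at an unadjusted p under 0.05, and 2 and 1 by DESeq2; median 0.12). F10, the gene of coagulation factor X, stood at 111, 108 and 146 CPM in Ccl3/Ccl4-high cells, against 57.0, 76.1 and 88.4 CPM in Ccl3/Ccl4-low cells, without overlap (log2 fold change 0.74 ± 0.08, adjusted p = 1.16e-06). Siglecf (0.92 ± 0.18, at 21.2, 17.1 and 20.9 CPM in Ccl3/Ccl4-high cells, against 13.8, 8.47 and 9.38 CPM in Ccl3/Ccl4-low cells) encodes a sialic acid lectin of eosinophils that neutrophils of some inflamed or tumour tissues also carry. The other 3 eosinophil markers of the list, Epx, Prg2 and Ccr3, did not pass the filter on low counts: Epx had 0 UMIs in both classes of every library, and Prg2 and Ccr3 reached at most 1.05 and 1.57 CPM in Ccl3/Ccl4-high cells, against 0.324 and 0.971 CPM in Ccl3/Ccl4-low cells. Pdcd1lg2, the PD-L2 gene, had 0.83 ± 0.27 and Basp1 0.68 ± 0.06. Cd274, the PD-L1 gene, was not called and had 193, 194 and 274 CPM in Ccl3/Ccl4-high cells, against 148, 135 and 245 CPM in Ccl3/Ccl4-low cells. The 2 genes lower were the macrophage genes Gpnmb (at 9.15, 5.59 and 14.1 CPM in Ccl3/Ccl4-high cells, against 14.4, 12.9 and 32.6 CPM in Ccl3/Ccl4-low cells) and Trem2 (-0.62 ± 0.11). Without likely doublets 3 of the 21 were called higher and 0 lower, and Pdcd1lg2 (0.75), Gpnmb (-0.46) and Trem2 (-0.22) were not called. DESeq2 called neither Siglecf, Pdcd1lg2 nor Gpnmb.

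Metabolic and stress genes gave a few calls. Of 27 glycolysis and hypoxia genes 3 were called higher and 0 lower (6 and 6 at an unadjusted p under 0.05, and 2 and 0 by DESeq2), with a median of 0.04: Hilpda, an inhibitor of lipid droplet breakdown that is induced by hypoxia, had 72.4, 46.8 and 75.9 CPM in Ccl3/Ccl4-high cells, against 42.1, 35.1 and 50.2 CPM in Ccl3/Ccl4-low cells, with overlap between libraries (log2 fold change 0.63 ± 0.10, adjusted p = 8.49e-05), Vegfa is given above, and Ero1l, an oxidase of the endoplasmic reticulum, had 0.54 ± 0.13. DESeq2 did not call Ero1l. Of 19 oxidative stress and iron genes 2 were called higher and 0 lower (10 and 3 at an unadjusted p under 0.05). DESeq2 called 1 of them higher and 0 lower, and did not call Srxn1. Sqstm1, which encodes the autophagy receptor p62, stood at 489.6, 452 and 464 CPM in Ccl3/Ccl4-high cells, against 305, 298 and 319 CPM in Ccl3/Ccl4-low cells, without overlap (log2 fold change 0.63 ± 0.05, adjusted p = 2.91e-08), and Srxn1, which encodes sulfiredoxin and like Sqstm1 is a target of NRF2, had 0.67 ± 0.16. Ptgs2, the gene of cyclooxygenase-2 that makes prostaglandin precursors, had 495, 457 and 460.1 CPM in Ccl3/Ccl4-high cells, against 344, 316 and 319.7 CPM in Ccl3/Ccl4-low cells (log2 fold change 0.55 ± 0.05, adjusted p = 1.81e-07), and its call ended without likely doublets (0.43). It was the 1 eicosanoid gene called of 11, and its call was kept in 12 of 20 alternative settings (0.30 to 0.60). A pair of genes outside the lists was among the 10 highest: Arf2, a small GTPase of vesicle traffic, had 60.7, 53.1 and 70.1 CPM in Ccl3/Ccl4-high cells, against 34.0, 30.4 and 34.7 CPM in Ccl3/Ccl4-low cells (log2 fold change 0.90 ± 0.10, adjusted p = 1.33e-06), and BC048502 had 64.9, 49.6 and 53.9 CPM in Ccl3/Ccl4-high cells, against 35.4, 28.4 and 27.9 CPM in Ccl3/Ccl4-low cells (log2 fold change 0.89 ± 0.10, adjusted p = 1.94e-06).

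Several lists gave no or few calls. Of 12 inflammasome and pyroptosis genes, 11 JAK-STAT feedback genes and 15 MHC genes, edgeR called 0 in either direction, with 3 and 0, 7 and 0, and 6 and 5 genes higher and lower at an unadjusted p under 0.05, and DESeq2 also called 0 in each. Among 31 interferon-stimulated genes that the rule does not use, 0 were called higher and 1 lower (13 and 3 at an unadjusted p under 0.05, and DESeq2 called 0), with a median of 0.16, although both classes had been held under the same interferon limit. The gene called lower was Irf8, a transcription factor of the monocyte lineage, at -0.81 ± 0.18. Among 15 genes of matrix proteases and their inhibitors, edgeR called 0 higher and 3 lower (Mmp8, Mmp14 and Serpinb1a, with a list median of -0.28). At an unadjusted p under 0.05, 1 was higher and 6 lower, and DESeq2 called 0 higher and 2 lower, without Serpinb1a. Of 12 oxidase, arginine and itaconate genes 0 were higher and 1 lower (Arg1, with a list median of -0.01). At an unadjusted p under 0.05, 4 were higher and 3 lower, and DESeq2 called 0 and 1.

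**Figure D4:**
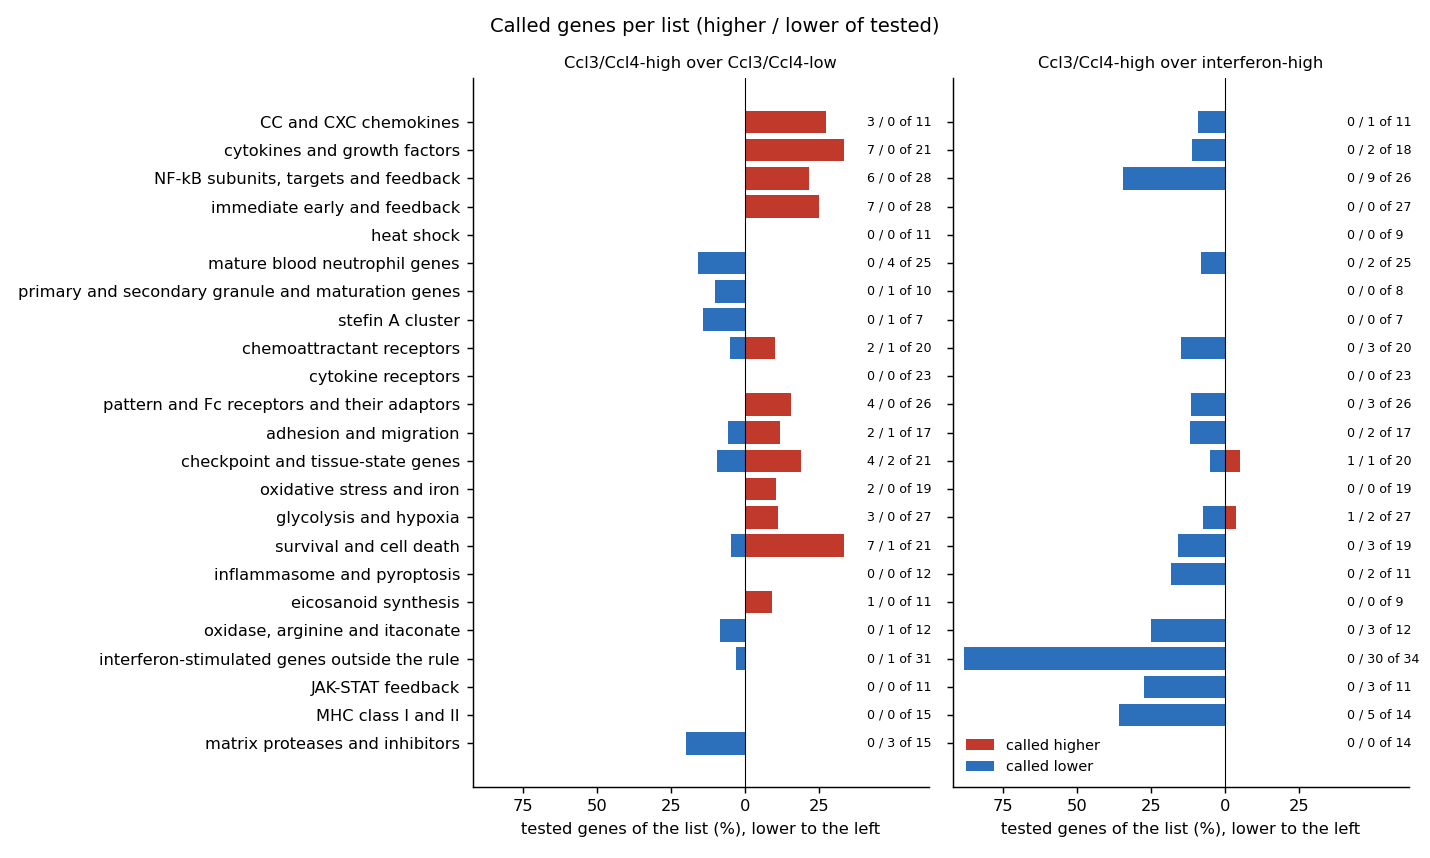
Genes called higher (red, to the right) and lower (blue, to the left) as a share of the tested genes of each of 23 lists (%, horizontal axis), for Ccl3/Ccl4-high over Ccl3/Ccl4-low cells (left) and over interferon-high cells (right); the counts stand at the right of each bar. Against Ccl3/Ccl4-low cells, cytokines (7 of 21) and survival genes (7 of 21) have the largest shares called higher, and against interferon-high cells 30 of 34 interferon-stimulated genes are lower.

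Genes typical of mature neutrophils in the blood were lower in part. Of 25 tested, 0 were called higher and 4 lower (5 and 12 at an unadjusted p under 0.05, and 0 and 4 by DESeq2), with a median of -0.17, and without likely doublets 0 were higher and 6 lower. Retnlg, a resistin-like secreted protein of mouse neutrophils, stood at 4745, 5247 and 3130.1 CPM in Ccl3/Ccl4-high cells, against 9419, 9255 and 4572 CPM in Ccl3/Ccl4-low cells. Each library was lower in its Ccl3/Ccl4-high cells (log2 fold change -0.76 ± 0.06, adjusted p = 1.91e-08), while the classes overlap across libraries, replicate 3 having the lowest value in both. Cd177, a surface protein of neutrophils that binds PECAM1, had 164, 166 and 121 CPM in Ccl3/Ccl4-high cells, against 273, 301 and 189 CPM in Ccl3/Ccl4-low cells, without overlap (log2 fold change -0.74 ± 0.07, adjusted p = 5.28e-08). Ifitm6 had 195, 271 and 172 CPM in Ccl3/Ccl4-high cells, against 405, 438 and 232 CPM in Ccl3/Ccl4-low cells (log2 fold change -0.72 ± 0.08, adjusted p = 1.21e-06), and Mmp8, neutrophil collagenase, had 414, 463 and 249 CPM in Ccl3/Ccl4-high cells, against 670.0, 754 and 350.2 CPM in Ccl3/Ccl4-low cells (log2 fold change -0.62 ± 0.06, adjusted p = 1.25e-07). Ly6g, the surface marker by which mouse neutrophils are sorted, was the 1 gene called of 10 granule and maturation genes, at 72.0, 86.7 and 53.4 CPM in Ccl3/Ccl4-high cells, against 137, 141 and 79.8 CPM in Ccl3/Ccl4-low cells (log2 fold change -0.74 ± 0.08, adjusted p = 1.3e-06). Of 7 stefin A genes, Stfa3 was called lower (-0.88 ± 0.22), but not by DESeq2. S100a8 had a log2 fold change of -0.22 ± 0.06 and Cxcr4, a receptor of aged neutrophils, 0.44 ± 0.06, and neither was called.

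Several of the remaining genes called lower belong to other cell types of the joint. Of 10 macrophage markers 4 were called lower and 0 higher (among them Ms4a7, Mrc1 and C1qc), and without likely doublets 0 of 10 were called lower (1 higher and 4 lower at an unadjusted p under 0.05, edgeR). Of 7 fibroblast markers 1 was called lower (Dcn, -0.55 ± 0.06) and all 7 were lower at an unadjusted p under 0.05, while without likely doublets 0 were called (0 higher and 4 lower at an unadjusted p under 0.05, edgeR), with Dcn at -0.24. Of 4 tested T and NK cell markers 2 were called lower (Nkg7 and Cd3g), and without likely doublets 1 of 3, which was neither of these. The platelet gene Pf4 was called lower (-0.57 ± 0.17), but not without likely doublets (-0.14). DESeq2 called 0 of the T and NK cell markers and not Pf4. Of 4 endothelial and 2 erythroid markers 0 were called in either direction (0 and 0, and 0 higher and 2 lower, at an unadjusted p under 0.05, edgeR; DESeq2 called 0), and no B cell or mast cell marker passed the filter on low counts. The largest falls among genes at 50 CPM or more were of Arg1, an arginase of macrophages, at 45.3, 13.3 and 124 CPM in Ccl3/Ccl4-high cells, against 99.8, 39.4 and 245 CPM in Ccl3/Ccl4-low cells (log2 fold change -1.09 ± 0.10, adjusted p = 3.59e-08), Rgs5, a gene of pericytes, at 33.3, 23.4 and 38.2 CPM in Ccl3/Ccl4-high cells, against 64.4, 37.2 and 99.7 CPM in Ccl3/Ccl4-low cells (adjusted p = 1.82e-06), Mmp14, a membrane-bound collagenase of fibroblasts and macrophages, at 50.7, 33.6 and 75.4 CPM in Ccl3/Ccl4-high cells, against 71.9, 77.5 and 162 CPM in Ccl3/Ccl4-low cells (log2 fold change -0.92 ± 0.10, adjusted p = 1.21e-06), and Selm at 31.2, 26.9 and 37.2 CPM in Ccl3/Ccl4-high cells, against 53.7, 35.9 and 85.4 CPM in Ccl3/Ccl4-low cells (log2 fold change -0.79 ± 0.12, adjusted p = 6.15e-05). The macrophage and fibroblast marker sums and the share of likely doublets, given above, were lower in Ccl3/Ccl4-high cells in the same libraries. Their part in these calls was not tested, but the values without likely doublets were -0.58 for Arg1, -1.09 on the log2 scale for Rgs5 and -0.65 for Mmp14. With Ccl3/Ccl4-low cells taken as those with no UMI of either gene, Arg1 had -0.25 and was not called.

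Of the 34 genes named by rule in this comparison, 29 were called, 19 higher and 10 lower, and 18 did not overlap between the classes, 17 of them higher and 1 lower. Of all 10451 tested genes, 832 (7.96%) were higher without overlap and 819 (7.84%) lower without overlap; the named genes were mostly chosen as the most changed, so nothing is read from their count. The classes overlapped for Clec4n and Hilpda among those higher, and for those lower other than Cd177. All 29 kept their direction under each of the 20 alternative settings. Most were named only if they had 1 direction in all 3 libraries, so little is read from this. Calls were lost more often. Without the replicate block 22 of the 29 were not called, at a neutrophil gene share of 0.5% 13, and with cells thinned to 1000 UMIs 9. Csf1, Arf2, Tnf, Traf1, Icam1 and Egr2 kept their calls in all 20. Csf1 ranged from 0.68 to 1.27 on the log2 scale over these settings. At a neutrophil gene share of 0.5% in place of 0.2%, 44 genes were called higher and 36 lower, and with each cell thinned to 1000 UMIs 73 and 52.

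The cells also differed among themselves by how much Ccl3 and Ccl4 they carried. Mature neutrophils below the interferon cut were put into 5 bins by their summed share: none, above 0 to 0.2%, 0.2 to 0.5%, 0.5 to 1%, and 1% or more, of which the last 3 divide the Ccl3/Ccl4-high cells. These 3 bins held 549, 618 and 450 cells, 307, 343 and 286 cells, and 151, 165 and 170 cells in replicates 1, 2 and 3. The values over bins are a description, with no test. Csf1 averaged 251, 252, 387, 569 and 785 CPM over the bins from none to 1% or more. Its level was nearly the same in the first 2 bins and increased in each bin above the limit. Tnf averaged 189.7, 202, 314, 367 and 512 CPM, Icam1 192, 180.1, 278, 316 and 552 CPM and Traf1 51.8, 59.7, 77.5, 116 and 169.9 CPM. In all 3 libraries each of these genes was higher at 1% or more than at 0.2 to 0.5%. The same held for Cxcl2 (11464, 10774, 13799, 16867 and 20166 CPM), Il1rn (224, 199.7, 279, 373 and 477 CPM) and Ccl2 (148, 172, 210.1, 288 and 426 CPM).

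Retnlg, Cd177 and Mmp8, shown because they were called lower above, ran the other way within the Ccl3/Ccl4-high cells. Retnlg averaged 7554, 7892, 5312, 3396 and 2045 CPM over the 5 bins. In replicate 1 it had 8859 CPM in cells without either transcript and 2243 CPM at 1% or more, in replicate 2 8705 and 2043 CPM, and in replicate 3, where it was lower in cells without either transcript, 5099 and 1847 CPM. The library difference seen at low shares was thus small at 1% or more. Cd177 averaged 243, 263, 169, 135 and 100.4 CPM and Mmp8 584, 597, 439, 300.0 and 242 CPM, and both were lower at 1% or more than at 0.2 to 0.5% in all 3 libraries. Fos averaged 1482, 1262, 1456, 1546 and 1326 CPM and Osm 318, 275, 301, 329 and 289.6 CPM, without such an order, while Cd274 averaged 191, 166, 191, 232 and 329.8 CPM and increased over the last 3 bins. The bins differ in depth, since 1 UMI is a smaller share of a deeper cell. The median depth was 2303, 2516 and 1909 UMIs in the bin from above 0 to 0.2% and 1617, 1636 and 1486 UMIs at 1% or more. The summed macrophage markers were 2645, 1784 and 3915 CPM in the same bin and 1519, 1519 and 1774 CPM at 1% or more. The part of depth and of other cells' RNA in the order over bins was not tested.

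**Figure D5:**
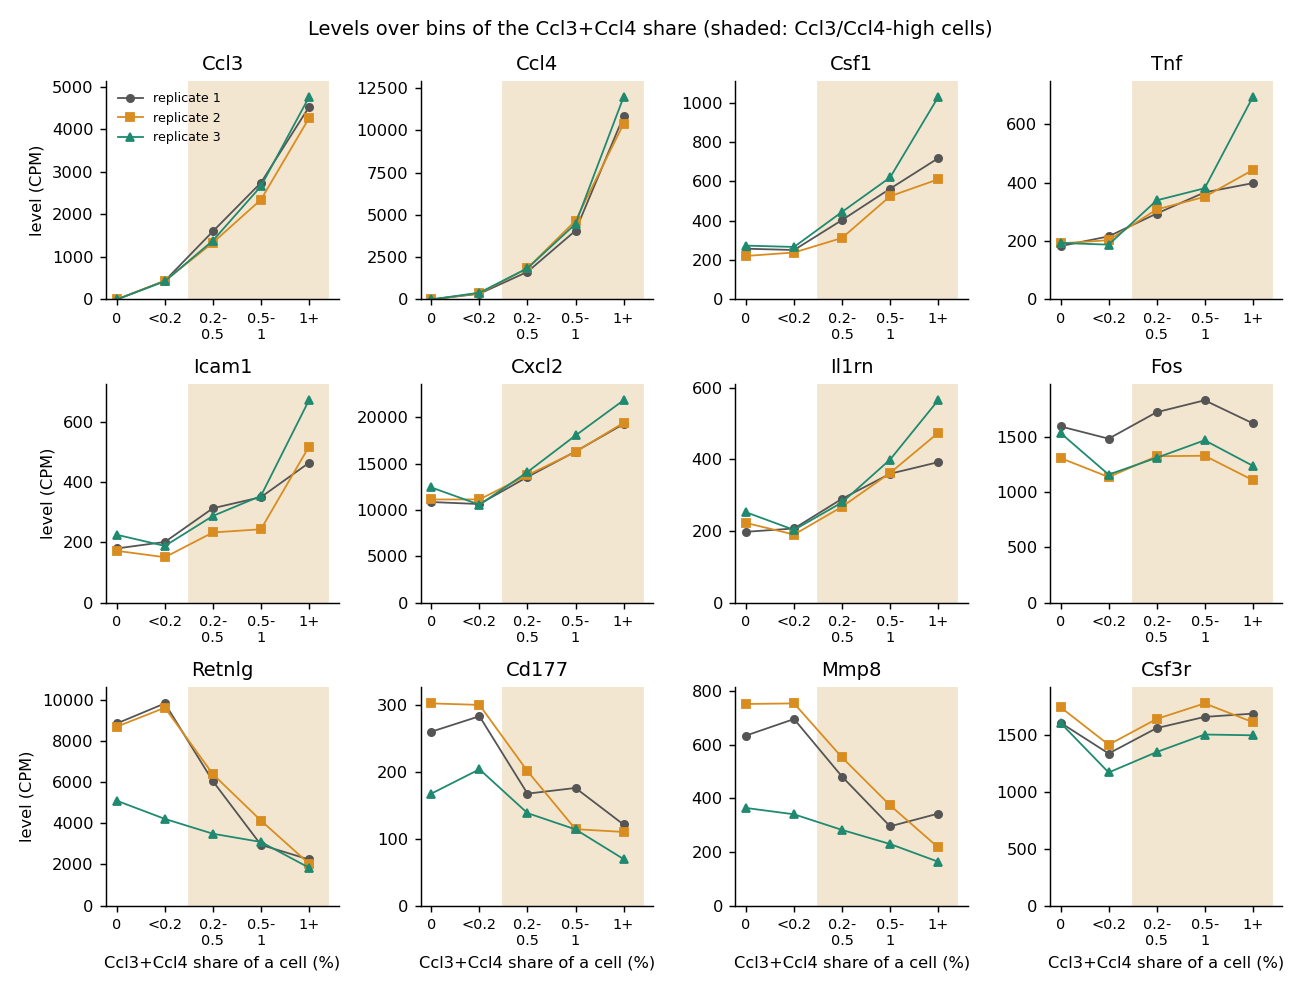
Level (CPM, vertical axis) of 12 genes in mature neutrophils below the interferon cut, by the share of Ccl3 and Ccl4 in a cell's UMIs (%, horizontal axis); each line is 1 of 3 libraries and the shaded bins are the Ccl3/Ccl4-high cells. Ccl3 and Ccl4 follow from the bins themselves, Csf1, Tnf, Icam1, Cxcl2 and Il1rn are highest at 1% or more in every library, and Retnlg, Cd177 and Mmp8 are lower there than at 0.2 to 0.5%.

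Interferon-high neutrophils were the class nearest to the Ccl3/Ccl4-high cells in Ccl3 and Ccl4, and both were compared to show where the Ccl3/Ccl4-high cells stand apart. The Ccl3/Ccl4-high cells are the same in this comparison as in the one above. The interferon-high class had no limit on Ccl3 and Ccl4, and 38.4, 35.8 and 42.0% of its cells reached the 0.2% limit. The part of those cells in the values below was not tested. Few genes were higher in Ccl3/Ccl4-high cells. Of 8414 genes tested, 18 were called higher (0.214%) and 274 lower (3.26%), in all 292 (3.47%), with a median of all genes of 0.01. At an unadjusted p under 0.05, 430 (5.11%) were higher and 810 (9.63%) lower. The classes did not overlap for 700 genes higher (8.32%) and 531 lower (6.31%), and 51.1% of all genes lay above 0. Leaving out replicate 1, 2 or 3 gave 28, 28 and 30 genes called higher, no replicate block gave 0 (192 at an unadjusted p under 0.05, edgeR), and DESeq2 gave 1, so the small number higher depends on these settings. The number lower lay between 186 and 353 under every alternative. Scaling by library totals alone called 52 higher and 236 lower and moved the median of all genes to 0.08.

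The interferon genes differ here because the classes were chosen by 5 of them, so they are given as a description. Of 34 tested interferon-stimulated genes outside the rule, 30 were lower in Ccl3/Ccl4-high cells and 0 higher, with a median of -1.56. Ifit3b was lowest, with 1.25, 1.75 and 3.66 CPM in Ccl3/Ccl4-high cells, against 55.9, 67.8 and 39.7 CPM in interferon-high cells, a log2 fold change of -4.74 ± 0.29. Gbp5, a guanylate-binding protein induced by interferon-γ, had 24.1, 15.4 and 40.3 CPM in Ccl3/Ccl4-high cells, against 133, 112 and 246 CPM in interferon-high cells (-2.70 ± 0.12), and Cxcl9, a chemokine for T cells, 38.7, 26.6 and 64.4 CPM in Ccl3/Ccl4-high cells, against 222, 158 and 255 CPM in interferon-high cells (-2.39 ± 0.11).

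Among genes of other lists, Cd274, Socs1 and 9 of 26 NF-κB genes were called lower in Ccl3/Ccl4-high cells. Interferon genes divided the 2 classes, so genes that go with them may follow from that choice. Which of the genes below do so was not tested. Cd274, the PD-L1 gene, whose protein restrains T cells, stood at 193, 194 and 274 CPM in Ccl3/Ccl4-high cells, against 615, 599 and 903 CPM in interferon-high cells, without overlap (log2 fold change -1.75 ± 0.07, adjusted p = 2.66e-13). Against Ccl3/Ccl4-low cells its log2 fold change was 0.38 ± 0.07. Socs1, which shuts off signalling by interferon receptors, had 129, 73.8 and 180.1 CPM in Ccl3/Ccl4-high cells, against 321, 215 and 589 CPM in interferon-high cells (log2 fold change -1.61 ± 0.09, adjusted p = 3.86e-11). Of the 26 NF-κB genes 0 were called higher (21 lower and 0 higher at an unadjusted p under 0.05; the list median was -0.33), and of 20 checkpoint and tissue-state genes 1 was higher (F10) and 1 lower (Cd274). Sod2, mitochondrial superoxide dismutase, stood at 142, 114 and 183 CPM in Ccl3/Ccl4-high cells, against 275, 211 and 391 CPM in interferon-high cells (log2 fold change -1.07 ± 0.08, adjusted p = 9.93e-09), and Icam1 at 342, 269.5 and 365 CPM in Ccl3/Ccl4-high cells, against 456, 441 and 718 CPM in interferon-high cells (log2 fold change -0.78 ± 0.09, adjusted p = 1.2e-06). Fcgr4, an activating receptor for IgG2 antibodies in the mouse, had 197, 180.4 and 203 CPM in Ccl3/Ccl4-high cells, against 354, 348 and 357 CPM in interferon-high cells (log2 fold change -0.94 ± 0.08, adjusted p = 1.53e-08). Of 14 MHC genes 5 were lower and 0 higher, among them the peptide transporter gene Tap1 (log2 fold change -1.07 ± 0.09, adjusted p = 1.88e-08). Irg1, which encodes the enzyme that makes itaconate, had 1080.2, 1384 and 1579 CPM in Ccl3/Ccl4-high cells, against 1880.2, 1921 and 2344 CPM in interferon-high cells (log2 fold change -0.69 ± 0.07, adjusted p = 1.96e-07). Lower too were Casp4 (-0.77 ± 0.09), which encodes the sensor of LPS inside the cell, Casp8 (-0.90 ± 0.16), Cx3cr1 (-0.73 ± 0.10), Rhoh (-1.17 ± 0.14), Ifitm3 (-0.73 ± 0.06), the hexokinase gene Hk1 (-0.81 ± 0.10) and Il1a (-0.71 ± 0.13).

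Csf1, Tnf, Cxcl2 and Il1rn, called higher against Ccl3/Ccl4-low cells, were not called against interferon-high cells, while Il1a was lower. Csf1 had 485, 407 and 584 CPM in Ccl3/Ccl4-high cells, against 558, 427 and 565 CPM in interferon-high cells (log2 fold change -0.15 ± 0.07), Tnf 327, 337 and 405 CPM in Ccl3/Ccl4-high cells, against 383, 323 and 449.6 CPM in interferon-high cells (-0.19 ± 0.08) and Cxcl2 14994, 15121 and 16411 CPM in Ccl3/Ccl4-high cells, against 15499, 14436 and 17072 CPM in interferon-high cells (-0.09 ± 0.05). Il1b had a log2 fold change of -0.18 ± 0.05, Il1rn -0.33 ± 0.07, Nfkbia -0.30 ± 0.05 and Osm 0.13 ± 0.09. Il1rn (edgeR adjusted p = 0.00604) and Nfkbia (edgeR adjusted p = 0.00083) were lower in every library without overlap. They were not called because they lay under the size limit of 0.5. Values of this size do not show that the classes are alike. Of 27 immediate early genes 0 were called by edgeR (5 higher and 9 lower at an unadjusted p under 0.05) and 0 by DESeq2. Retnlg (0.23 ± 0.05), S100a8 (0.17 ± 0.04) and Cxcr4 (-0.04 ± 0.08) were not called either. The 6 genes higher at 50 CPM or more were F10, at 111, 108 and 146 CPM in Ccl3/Ccl4-high cells, against 58.7, 77.5 and 95.4 CPM in interferon-high cells (log2 fold change 0.58 ± 0.11, adjusted p = 0.000977), Hilpda (log2 fold change 0.60 ± 0.15, adjusted p = 0.0195), Chst12 (0.63 ± 0.15), Gm42674 (0.65 ± 0.13), Apoc2 (0.57 ± 0.13) and Fam63a (0.50 ± 0.13). F10 and Hilpda were thus called higher than in both other classes of mature neutrophil, with Hilpda overlapping between libraries in each comparison. Against interferon-high cells F10 kept its call in 17 and Hilpda in 13 of 19 alternative settings. Neither was called without the replicate block, and DESeq2 called 1 gene higher among all genes, so it did not call both. Hilpda was not called without replicate 1 (0.40), nor Chst12 without replicate 2 (0.52), nor Apoc2 without replicate 3 (0.45), nor Fam63a when any 1 of the 3 libraries was left out.

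Between libraries the Ccl3/Ccl4-high cells were close to each other. Of 2751 genes at 50 CPM or more, the median gene differed 1.23-fold between its highest and lowest library, and 9 genes differed by more than 3-fold. Sema5b, a semaphorin gene, had 2.50, 123 and 2.62 CPM in replicates 1, 2 and 3. The granule genes Camp (32.0, 222 and 21.5 CPM), Ltf (27.9, 62.6 and 15.7 CPM) and Ngp (129, 312 and 89.0 CPM), which the rule holds under its limit, were highest in replicate 2, the library with the most immature neutrophils (68, 176 and 44 cells). Arg1 (45.3, 13.3 and 124 CPM), Trem2 (28.7, 16.8 and 61.8 CPM), Apoe (779, 524 and 1638 CPM) and C1qc (76.5, 48.2 and 145 CPM), which are genes of macrophages, were highest in replicate 3, where the summed macrophage markers of these cells were also highest (2123, 1213 and 2375 CPM). Fabp4, a lipid carrier of fat cells and endothelium, had 484, 328 and 141 CPM. The chemokine genes of the rule differed little, with Ccl3 at 2264, 1962 and 2265 CPM and Ccl4 at 3404, 3639 and 4135 CPM.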

How the data were processed

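Synovial cells of 3 libraries were counted by droplet RNA-seq (DNBelab C, per the labels' protocols). The authors deposited raw UMI counts for each gene and barcode, which PISA 1.0 wrote per the file headers. Seurat 3.0.2, R 3.6 and the build GRCm39 (mm39) are named in the submitters' processing notes. Aligner and annotation: not given in the sources used here. The labels state 11111, 10668 and 14363 cells, fewer than the 11939, 11602 and 15263 barcodes in the matrices, and the quality limits were applied to all barcodes, each with at least 1000 UMIs. Of 24357 genes 21479 were in all 3 matrices, and a gene missing from 1 was taken as 0 there.

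Classes were gated by shares of UMIs (Python 3.11.15, numpy 2.4.6, scipy 1.17.1), raw counts were summed per library and class, and tested with edgeR 4.0.16 (R 4.3.3) by a two-sided quasi-likelihood F-test, after filterByExpr and TMM scaling, with the library as block (Benjamini-Hochberg over all genes). DESeq2 1.42.0 was an alternative. All 3039 Ccl3/Ccl4-high cells entered the sums. Both classes of a library come from the same mice, so library numbers pair the samples; the deviations of the 2 classes of 1 library correlated at 0.195, 0.318 and 0.384 over genes in the first comparison and at 0.151, 0.233 and 0.334 in the second. With the library as block, p-values measure how the difference between 2 classes varies over 3 pools of 2 mice. They do not measure the spread between single mice. The fit was tested on simulated data.

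Doublets were kept, as the rule does; Scrublet (scanpy 1.11.5, expected rate 6%) scored them, and barcodes at 0.2 or more were left out as an alternative. To compare shares of cells with a UMI, cells were thinned to 1000 UMIs, and no cell was shallower. The macrophage and fibroblast gates are shares of marker UMIs of at least 0.5% and 1%, counted outside the neutrophil gates. Named genes were the 10 highest and 8 lowest called genes at 50 CPM or more, the most changed called gene of each list and direction, and 11 genes always shown, with 2 more under this rule not reported here; other genes were named as members of lists and were chosen after their values were seen. Acod1 and Ero1a were read under the older symbols Irg1 and Ero1l. The cells and the gene lists were chosen with earlier results of these data known. Gene lists share members (Icam1, Vegfa, Cxcl9, Siglecf and Mmp8, for example), and sequences came from the RefSeq promoter table of build GRCm38.p6, which is not the build of the counts. Alternatives changed the scaling, the test, the filter, the block, the libraries and each limit of the rule.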

Additional observations from a re-analysis of the deposited data

How the results depend on the processing

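Against Ccl3/Ccl4-low cells the main count of 170 genes called higher became 102 with DESeq2, 9 with no replicate block, 106 without likely doublets, 88 at a Ccl3 and Ccl4 limit of 0.1%, 289 at a Ccl3 and Ccl4 limit of 0.5%, 335 with Ccl3 alone at 0.2%, 44 at a neutrophil gene share of 0.5% and 73 with cells thinned to 1000 UMIs. The 281 called lower became 53 with DESeq2, 0 with no replicate block, 95 without likely doublets, 83 at a Ccl3 and Ccl4 limit of 0.1%, 453 with Ccl3 alone at 0.2%, 141 with Ccl4 alone at 0.2%, 36 at a neutrophil gene share of 0.5%, 52 with cells thinned to 1000 UMIs and 67 with low cells taken as those without a UMI of either gene. Leaving out 1 library gave 162 to 200 higher and 209 to 263 lower. Without the replicate block 9 genes higher and 0 lower were called in the comparison with Ccl3/Ccl4-low cells. Against interferon-high cells the 18 genes called higher became 52 with scaling by library totals alone, 1 with DESeq2, 47 with no filter on low counts, 0 with no replicate block, 55 at a Ccl3 and Ccl4 limit of 0.1%, 41 with Ccl3 alone at 0.2%, 30 at a neutrophil gene share of 0.5% and 11 with the rule applied to thinned cells, and 28 to 30 without 1 library, while the 274 lower became 260 to 298 without 1 library and stayed within 1.5 times the main count elsewhere. The mean share of 32.4% became 43.9% at a Ccl3 and Ccl4 limit of 0.1%, 15.2% at a Ccl3 and Ccl4 limit of 0.5%, 15.9% with Ccl3 alone at 0.2%, 20.8% with Ccl4 alone at 0.2%, 35.5% with the rule applied to thinned cells and 34.8% without barcodes whose other-lineage marker share was 0.2% or more, and 31.6 to 33.2% without 1 library. The 34.8% rests on very few cells, 4 of 10, 1 of 7 and 5 of 10 in replicates 1, 2 and 3 (40, 14.3 and 50%). The causes of the differences between settings were not tested, except that limits on Ccl3 and Ccl4 change which cells belong to the class. Scaling by library totals alone changed the split between higher and lower calls, to 149 and 321 against Ccl3/Ccl4-low cells and to 52 and 236 against interferon-high cells.

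Some log2 fold changes changed sign, in genes not called except Gm42674. Against Ccl3/Ccl4-low cells, Osm had -0.0253 without likely doublets, -0.111 with Ccl3 alone at 0.2%, -0.0724 at a neutrophil gene share of 0.5% and -0.0666 with low cells taken as those without a UMI of either gene. Against interferon-high cells, Cxcr4 had 0.0403 with scaling by library totals alone, 0.00893 with no filter on low counts, 0.0353 without replicate 1, 0.000567 without likely doublets, 0.103 at a Ccl3 and Ccl4 limit of 0.5%, 0.203 with Ccl3 alone at 0.2%, 0.0838 with cells thinned to 1000 UMIs and 0.101 with the rule applied to thinned cells. Osm had -0.012 without replicate 3 and -0.0267 with Ccl3 alone at 0.2%. Cxcl2 had 0.141 at a Ccl3 and Ccl4 limit of 0.5%, 0.0217 with Ccl3 alone at 0.2%, 0.00839 with Ccl4 alone at 0.2%, 0.0299 at a neutrophil gene share of 0.5% and 0.00175 with the rule applied to thinned cells. Tnf had 0.0536 at a Ccl3 and Ccl4 limit of 0.5% and 0.165 with Ccl3 alone at 0.2%. Csf1 had 0.254 at a Ccl3 and Ccl4 limit of 0.5% and 0.271 with Ccl3 alone at 0.2%. Retnlg had -0.279 at a Ccl3 and Ccl4 limit of 0.5% (edgeR adjusted p = 0.00434) and -0.358 with Ccl3 alone at 0.2% (edgeR adjusted p = 0.000504). Its main value was 0.23 (edgeR adjusted p = 0.00886), so its direction against interferon-high cells depended on the limit. Gm42674 had -0.021 with Ccl3 alone at 0.2% and -0.108 at a neutrophil gene share of 0.5%. S100a8 had -0.0527 with Ccl3 alone at 0.2%. Without replicate 2 Cxcr4 had -0.114 and Osm 0.213. The causes were not tested. The removal of barcodes with 0.2% or more of other-lineage markers left 4, 1 and 5 Ccl3/Ccl4-high cells, so genes were not tested there. The alternatives without barcodes of over 0.2% macrophage markers and with the rule's genes left out of the sums were chosen after seeing the data. Cells at the limit hold 3 to 5 UMIs of both genes, so their class carries counting error.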
